A study of Mus musculus with 48 samples.

Results

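Ucn3, Slc30a8, Gad1, Gad2, Abat, Ddc, Tph1 and Tph2 are 8 genes of the mature β cell and of its amine messengers, and they were chosen by symbol among the 42713 genes of the deposited tables. Ucn3 encodes urocortin 3, a peptide of the corticotropin-releasing factor family that mouse β cells release and that acts on δ cells through the receptor Crhr2. Slc30a8 encodes the transporter that loads zinc into insulin granules, where zinc crystallises insulin. The remaining genes make or break down small messengers. Gad1 and Gad2 turn glutamate into γ-aminobutyric acid (GABA), Abat breaks GABA down, Tph1 and Tph2 carry out the rate-limiting step of serotonin synthesis, and Ddc removes the carboxyl group that leads to serotonin and dopamine. Ucn3 is known as a late marker of mouse β-cell maturation, and serotonin synthesis in β cells is known to rise in pregnancy under prolactin.

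The series measured polyA RNA in α and β cells that were sorted by fluorescence from islets of male mice aged 6 to 8 weeks. Every animal carried ProGcg-Venus, which marks α cells, RIP-Cherry, which marks β cells, PER2::Luc, a luciferase fused to a clock protein, and Insulin-rtTA with TET-DTA, so that doxycycline turns on a diphtheria toxin gene in cells with an active insulin promoter. The doxycycline (DOX) mice drank water with 300 mg of the drug and 2% sucrose, and the control (CTR) mice, with the same transgenes, drank water with sucrose only. The light phase and the dark phase lasted 12 h each, food was given at night only from 10 days on before sampling, and part of the animals were held on inverted cycles for 2 weeks. Cells were collected at zeitgeber times (ZT, hours after lights on) 0, 4, 8, 12, 16 and 20, with 2 libraries for each of the 24 groups and 12 for each of the 4 conditions. Nothing in the labels ties the libraries of a group to different animals, and the p-values therefore rest on a spread between libraries that may be technical. No mice received the drug without the toxin, so the drug and the ablation cannot be told apart. β cells of DOX mice are the insulin-reporter-positive cells left after the ablation, and in such bulk samples fewer cells of a type and less RNA per cell cannot be told apart.

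The dates in the sample titles gave 2 sequencing runs, an earlier one with 20 libraries of 16.1 M to 28.6 M counts and a later one with 28 libraries of 37.4 M to 69.9 M. Levels are given as CPM, counts divided by the scaled library total, and CPM per kilobase (kb) of transcript where genes are compared with each other. The β markers followed the labels: the summed level of 8 of them (the insulins, Mafa and others) had a median of 293591 CPM in control β cells and 640 CPM in control α cells. Markers of δ, PP and ε cells had a median sum of 31992 CPM in control α and 42629 CPM in DOX α cells. In control β cells that median was 643 CPM. The part of such cells in low α levels was not tested. One control α library, ZT20 replicate 2, stood apart with a β-marker sum of 4258 CPM, the highest of its condition, and an Ins1 level of 1088 CPM.

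In control β cells, urocortin 3 and the zinc transporter stood at the same height, and the amine genes were spread over a wide range below them. Per kb, Ucn3 had 433 ± 74.7 and Slc30a8 432 ± 79.5 CPM per kb (SD, n = 12), and the spreads of these neighbours in the order overlapped. Ddc followed with 94.5 ± 13.7, Abat with 23.3 ± 2.51 and Gad1 with 10.9 ± 4.13 CPM per kb. Far below them came Tph2 with 0.535 ± 0.153, Gad2 with 0.00810 ± 0.00976 and Tph1 with 0.00163 ± 0.00420 CPM per kb. In DOX β cells Slc30a8 had 223 ± 61.8, Ucn3 211 ± 67.1, Ddc 89.7 ± 11.1, Abat 16.9 ± 2.93 and Gad1 2.01 ± 0.936 CPM per kb, with Slc30a8 and Ucn3 within each other's spread.

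**Figure D1:**
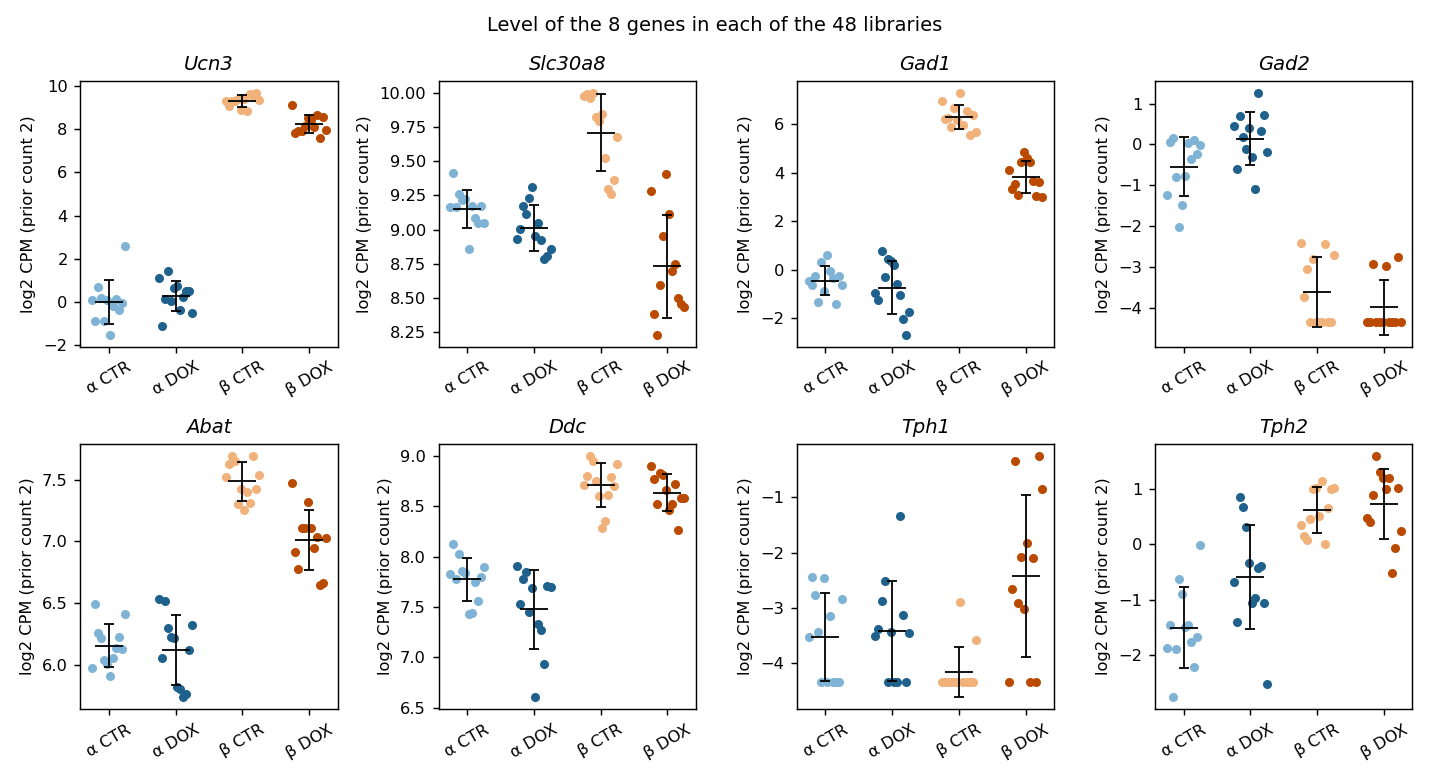
Level of the 8 genes in all 48 libraries, on a log2 CPM scale with a prior count of 2. Each point is 1 library, ordered by time within a condition, and black bars give the mean and SD of 12 libraries. Ucn3 and Gad1 stand far higher in both β conditions than in α cells, Gad2 stands higher in α cells, and the lowest row of points for Gad2 and Tph1 marks libraries at 0 counts.

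The first comparison asked how the genes were divided between α and β cells of control mice. Of the 8 genes, 6 passed the filter on low counts and all 6 were higher in β cells by edgeR's quasi-likelihood test at an adjusted p under 0.05, against 71.4% of all 14945 genes called in either direction, 34.2% higher and 37.3% lower in β cells. The share of all genes called is so large that a call says little of these genes, and the sizes differed widely. Tph2 did not pass the filter in control α cells alone and was tested through its β libraries. The filter thus favoured a higher β level for Tph2. In 5 of these 6 genes the 12 β libraries lay above all 12 α libraries, against 23.1% of genes whose libraries did not overlap.

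Ucn3, the secreted peptide, had the widest gap. Its level ran from 458 to 810 CPM in control β cells (median 647) and from 0.305 to 6.04 CPM in control α cells (median 0.968). The log2 difference was 9.06 ± 0.31 (SE; adjusted p = 1.21e-16), and 9.46 ± 0.17 without the control α library of ZT20 replicate 2, which held the 6.04 CPM. The α level was 0.203% of the β level, beside 0.224% for Ins2, 0.240% for Ins1, 0.226% for Mafa and 0.321% for the glucose transporter gene Slc2a2. The β marker Iapp had a larger share, 0.860%. Without the same library, an alternative chosen after seeing the data, these shares were 0.136% for Ucn3, 0.130% for Ins2 and 0.132% for Ins1. They were 0.102% for Mafa, 0.253% for Slc2a2 and 0.799% for Iapp. How far β-cell RNA in the α-cell libraries contributed to these low α values was not tested.

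Gad1 was also nearly confined to β cells, whereas the other glutamate decarboxylase gene, Gad2, was not. Gad1 ran from 46.3 to 155 CPM in control β cells (median 75.1) and from 0.330 to 1.45 CPM in control α cells (median 0.703), a log2 difference of 6.82 ± 0.13 (adjusted p = 1.54e-20). Gad2 ran from 0.199 to 1.07 CPM in control α cells (median 0.764) and from 0 to 0.139 CPM in control β cells (median 0.0130), so that all α libraries lay above all β libraries, with 326 counts summed over the α and 26 over the β libraries. It did not pass the filter in control mice, and without the filter its log2 difference was −3.99 ± 0.56 (adjusted p = 3.61e-07). In α cells Gad1 and Gad2 stood at 0.0969 ± 0.0428 and 0.120 ± 0.0526 CPM per kb, within each other's spread.

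Because the 2 genes encode related enzymes, reads from a shared stretch could be assigned to either. The longest run of identical bases that their reference coding sequences share is shown in capitals inside windows of 60 bases, in GRCm38. The Gad1 window is chr2:70593433-70593492 on the plus strand, in exon 13 of transcript Gad1-201, and the Gad2 window is chr2:22673945-22674004 on the plus strand, in exon 12 of Gad2-201.
Gad1: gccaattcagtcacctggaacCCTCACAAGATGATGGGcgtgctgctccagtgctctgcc
Gad2: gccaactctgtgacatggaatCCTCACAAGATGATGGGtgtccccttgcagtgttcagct
The shared run was 17 bases long. Control β libraries held 1911 to 8948 Gad1 counts and 0 to 10 Gad2 counts, and DOX β libraries 248 to 1542 Gad1 counts and 0 to 2 Gad2 counts.

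Slc30a8 was shared between the cell types rather than restricted. It ran from 614 to 1023 CPM in control β cells (median 898) and from 463 to 684 CPM in control α cells (median 575), and the groups overlapped. The log2 difference was 0.54 ± 0.07 (adjusted p = 3.13e-07), and the α level was 67.1% of the β level. Abat, the GABA-degrading transaminase, was 2.48-fold higher in β cells, at 153 to 207 CPM (median 178) against 59.9 to 89.7 CPM (median 70.1). Ddc, the decarboxylase, was 1.87-fold higher, at 312 to 512 CPM (median 425) against 172 to 280 CPM (median 225). The groups of neither gene overlapped. In GENCODE an antisense gene, 1700042O10Rik, overlaps Ddc, and the unstranded libraries cannot separate reads of such a pair.

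The 2 tryptophan hydroxylase genes were both low. Tph1 was near the detection limit, and Tph2 was the higher one in β cells. Tph2 had 0.954 to 2.16 CPM in control β cells (median 1.45) and 0.0977 to 0.947 CPM in control α cells (median 0.285), a log2 difference of 2.20 ± 0.20 (adjusted p = 2.14e-09). Tph1 had 4 counts in all over the 12 control β libraries, with 10 of them at 0, and 26 counts over the 12 control α libraries, with 5 at 0. Low counts in these tables rise in steps of 2, so 1 counted unit may add 2, and such sums may stand for still fewer units. The shared stretches of this pair are shown for the same reason as for the decarboxylases, with the longest run of identical bases (15) in capitals. The Tph1 window is chr7:46656944-46657003 on the minus strand, in exon 6 of Tph1-201, and the Tph2 window is chr10:115151169-115151228 on the minus strand, in exon 6 of Tph2-201 (GRCm38).
Tph1: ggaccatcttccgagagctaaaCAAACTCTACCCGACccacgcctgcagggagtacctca
Tph2: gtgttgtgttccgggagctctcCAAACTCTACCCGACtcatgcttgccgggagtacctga

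Within each sequencing run the control differences kept their direction and their calls. For Ucn3 the log2 difference was 9.70 in the earlier and 8.89 in the later run, for Gad1 6.68 and 6.93, for Slc30a8 0.56 and 0.55, for Abat 1.30 and 1.35, for Ddc 0.95 and 0.91, and for Tph2 2.28 and 2.22.

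The pathways around these genes are set beside the 71.4% of all genes called between the cell types, 34.2% higher and 37.3% lower in β cells, and nothing particular to a pathway is read from its counts. Of 28 genes of GABA synthesis, transport, breakdown and reception, 15 were tested, of which 7 were higher and 5 lower in control β cells, with a median log2 difference of 0.01 beside −0.03 over all genes tested. Gabrg1, a GABA receptor subunit gene, was lower in β cells by a log2 difference of −6.66 ± 0.26. Of 38 serotonin and catecholamine genes, 14 were tested, with 10 higher and 4 lower (median 0.74). Tyrosine hydroxylase, Th, the entry enzyme of catecholamine synthesis, was higher in β cells by 7.16 ± 0.17 and the vesicular monoamine transporter gene Slc18a1 by 2.23 ± 0.07. Slc32a1, the vesicular GABA transporter gene, was listed at 0 in all 12 libraries of both α conditions and had 8 counts in 1 control β library; it was chosen after its values were seen.

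Among 27 zinc transporters and metallothioneins, 20 were tested, with 13 higher and 3 lower in control β cells (median 0.30), beside the same 71.4% of all genes. The zinc importer gene Slc39a7 was higher by 0.73 ± 0.05 and the metallothionein gene Mt1 by 1.94 ± 0.14, while the importer gene Slc39a11 was lower, by −1.64 ± 0.12. All 11 genes of prolactin and growth hormone signalling were tested, with 7 higher and 2 lower (median 0.26): the prolactin receptor gene Prlr was higher by 8.23 ± 0.30, the growth hormone receptor gene Ghr by 1.90 ± 0.05 and the feedback inhibitor gene Socs2 by 1.65 ± 0.12. Of the 7 genes of the urocortin and corticotropin-releasing factor system, 2 were tested, and Ucn3 was the only one called.

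The central comparison asked what doxycycline changed in β cells. Gad1, Slc30a8, Ucn3 and Abat fell, and Ddc and Tph2 did not pass the test. Of the 8 genes, 6 passed the filter and 4 were called, all 4 lower, against 46.9% of all 15188 genes called in either direction, 23.8% higher and 23.1% lower. Gad1 was the only one of the 8 whose DOX libraries all lay below the control libraries, and 2.48% of genes had libraries that did not overlap. All 4 were lower in the mean at each of the 6 times.

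Gad1 fell most. It ran from 7.95 to 28.8 CPM in DOX β cells (median 12.4), against 46.3 to 155 CPM in control β cells. The log2 difference was −2.48 ± 0.16 (adjusted p = 5.91e-10), or 5.56-fold lower, and by time it ranged from −1.78 at ZT8 to −2.88 at ZT0. In control β cells the earlier-run library was the higher one at all 5 times with 1 library in each run, with means of 102 and 58.4 CPM, and in DOX β cells at 4 of 5 times, with means of 16.4 and 15.02 CPM. Within the runs the difference was −2.62 ± 0.10 in the earlier and −2.37 ± 0.24 in the later run. Of the related pair, the log2 ratio of Gad1 to Gad2 CPM (prior count 2) was 9.90 ± 0.870 in control and 7.79 ± 0.897 in DOX β cells (SD, n = 12), a difference of −2.11 (two-sided permutation test, p = 2e-05, the smallest that 100000 resamples can give). With Gad2 near 0 in both, that ratio moves with Gad1. Gad1os, the annotated antisense gene near Gad1, was listed at 0 in all 48 libraries.

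Ucn3 and Slc30a8 fell by similar amounts. Ucn3 ran from 195 to 550 CPM in DOX β cells (median 281) against 458 to 810 CPM in control β cells. Its highest DOX library, ZT0 replicate 1, was the only one inside the control range, and the other DOX library of ZT0 had 225 CPM. Slc30a8 ran from 300.5 to 679 CPM in DOX β cells (median 401) against 614 to 1023 CPM, and the libraries of ZT0 replicate 1 (622 CPM) and ZT8 replicate 2 (679 CPM) overlapped the control range. The log2 differences were −1.03 ± 0.14 for Ucn3 (adjusted p = 4.59e-06) and −0.95 ± 0.11 for Slc30a8 (adjusted p = 1.60e-06), with 95% intervals of −1.30 to −0.76 and −1.17 to −0.73. Within the runs they were −1.10 and −0.99 for Ucn3 and −0.93 and −0.96 for Slc30a8, earlier run first.

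Abat fell less, from 153 to 207 CPM in control β cells to 99.9 to 178 CPM in DOX β cells (median 131). The ranges overlapped through 2 DOX libraries, ZT0 replicate 1 with 178 CPM and ZT8 replicate 2 with 160 CPM. The log2 difference was −0.46 ± 0.08 (adjusted p = 9.66e-05), or 1.37-fold lower, with −0.43 and −0.47 within the earlier and the later run.

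Ddc and Tph2, which act on the serotonin route, gave no call in β cells. Ddc ran from 306 to 478 CPM in DOX β cells (median 393), close to its control range of 312 to 512 CPM, with a log2 difference of −0.06 and a 95% interval of −0.19 to 0.07 (adjusted p = 0.494). Within the runs it was −0.02 and −0.08. The interval does not reach the −0.46 of Abat. Tph2 ran from 0.645 to 2.98 CPM (median 1.88), with a log2 difference of 0.14 and an interval of −0.20 to 0.48 (adjusted p = 0.526). Without the filter on low counts the 2 remaining genes could be fitted as well. Gad2 had 6 counts in all over the 12 DOX β libraries, with 9 at 0, and its difference of −1.93 ± 1.05 did not pass (adjusted p = 0.197).

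Tph1, the hydroxylase known from pregnant islets, was nearly silent in control β cells and was counted in more of the DOX libraries. It had 88 counts over the 12 DOX β libraries with 3 at 0, against 4 counts with 10 at 0 in control β cells, or 0.243 ± 0.282 against 0.0101 ± 0.0259 CPM. The DOX mean was the higher one at all 6 times, and the highest DOX libraries were those of ZT20 (0.795 and 0.504 CPM) and ZT4 replicate 1 (0.741 CPM). The unfiltered fit gave a log2 difference of 3.99 ± 0.87 (adjusted p = 0.000697), whose size depends on the prior count at such counts. The earlier-run library was the higher one at all 5 shared times in DOX β cells, with means of 0.428 and 0.132 CPM. The level stayed under that of Tph2 in the same cells, 0.0393 ± 0.0457 against 0.607 ± 0.241 CPM per kb. Mast cells also express Tph1, and of 6 mast markers 5 were at 0 in every DOX β library, with a summed level of at most 0.0775 CPM. The part of mast cells or of any other cells in the Tph1 counts was not tested.

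**Figure D2:**
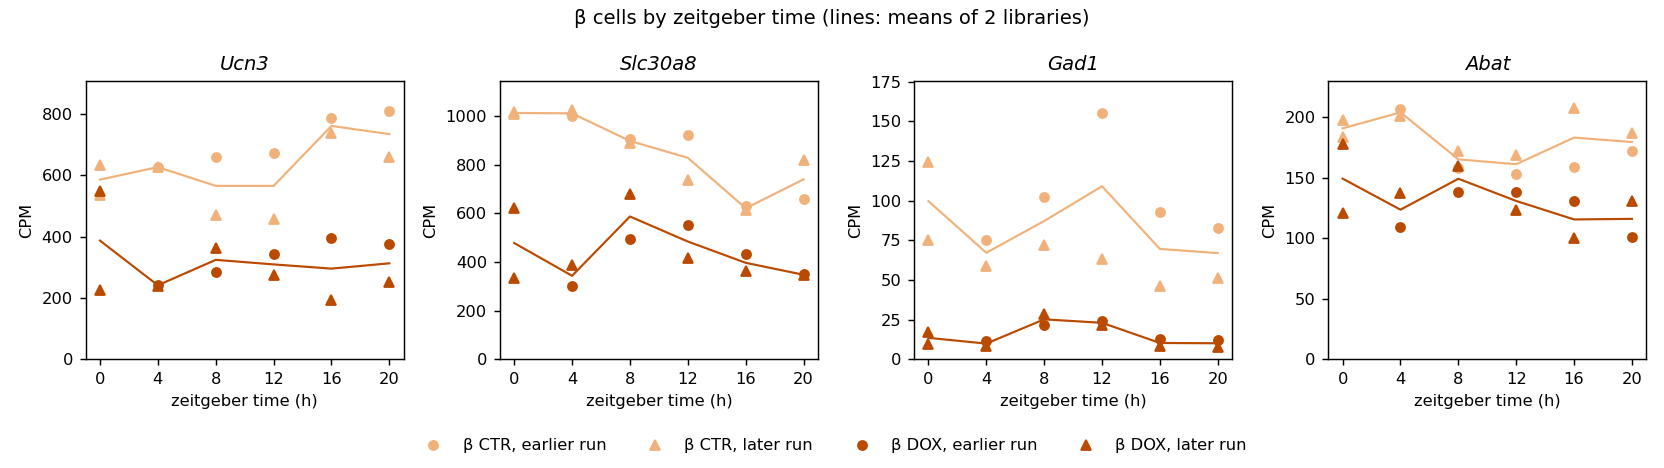
Ucn3, Slc30a8, Gad1 and Abat in β cells by zeitgeber time, in CPM on axes that start at 0. Circles are libraries of the earlier and triangles of the later sequencing run, and lines join the means of 2 libraries for control (light) and DOX (dark) mice. The DOX mean lies below the control mean at all 6 times for all 4 genes, and Gad1 in control cells is higher in the earlier run.

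Markers of other cell types moved with the treatment in the β libraries. All 14 macrophage and dendritic markers rose, from a summed level of 58.3 to 423 CPM (median 204) to 146 to 1703 CPM (median 857). Of 7 α markers, 5 were tested and 4 rose, with sums of 348 to 859 CPM in control and 1423 to 3778 CPM in DOX β cells, against a median of 301387 CPM in control α cells. All 6 tested markers of δ, PP and ε cells rose, from a median sum of 643 to 1097 CPM, and 1 of 13 acinar markers did. The β markers moved in both directions, with 2 of 8 higher and 3 lower and a median log2 difference of −0.10. The 3 of lowest p were those that fell. Mafa, the activator of insulin transcription, fell by 1.22 on the log2 scale, Slc2a2 by 0.99 and the transcription factor gene Nkx6-1 by 0.37. Iapp, another of the 8, had a mean of 30107 CPM in DOX and 25459 CPM in control β cells. The part of these other cells in the results of the 8 genes was not tested. Ins2 had 198470 ± 37019 CPM in DOX and 213631 ± 44915 CPM in control β cells, and these levels overlapped within their SDs.

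The same pathways were followed after doxycycline, beside 46.9% of all genes called in β cells, 23.8% higher and 23.1% lower. Of the 14 tested GABA genes 4 rose and 3 fell, with a median log2 difference of 0.03 beside −0.01 over all genes. The 3 that fell were Gad1, Abat and Glul, the glutamine synthetase gene, which went from 581 ± 117 to 291 ± 73.2 CPM (adjusted p = 1.43e-07). Among those that rose, named after their values were seen, were the glutaminase gene Gls2 (0.79) and the receptor subunit genes Gabrd (1.54) and Gabra4 (0.86). Of the 14 tested serotonin and catecholamine genes 1 rose and 5 fell (median −0.04). Maob, a monoamine oxidase gene, fell by 0.98 ± 0.10, and Gch1, which starts the synthesis of the hydroxylases' cofactor, fell by 0.68 ± 0.08. Pts (−0.65) and Th (−0.49), which also fell, and the 1 that rose, the dopamine receptor gene Drd2 (2.49), were chosen after their values were seen.

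Of the 20 tested zinc genes 10 rose and 5 fell (median 0.17), beside the same 46.9% of all genes, and Slc30a8 was among those that fell. Slc39a11 rose by 1.60 ± 0.14 and Slc39a13 by 0.61 ± 0.06, while the 4 others that fell, chosen after their values were seen, were Mt1 (−1.24), Mt2 (−1.17), Slc30a1 (−0.29) and Slc30a9 (−0.16). Slc39a11 stood at 56.9 ± 10.4 CPM in control α cells, 18.9 ± 5.68 CPM in control β cells and 57.2 ± 19.8 CPM in DOX β cells, and the α markers rose in the same libraries, whose part in this rise was not tested. Of the 11 prolactin and growth hormone genes 1 rose and 4 fell (median −0.16). Stat5a fell by 0.51 ± 0.11, Stat5b by 0.33 ± 0.07 and Ghr by 0.23 ± 0.05, and Prlr had 522 ± 52.5 CPM in DOX and 533 ± 119 CPM in control β cells. In the urocortin system both tested genes fell, Ucn3 and the receptor gene Crhr1 (−1.64 ± 0.39), which stood at 2.05 ± 2.26 CPM in control and 0.652 ± 0.488 CPM in DOX β cells. Crhr2, the receptor for urocortin 3, reached at most 0.854 CPM in any library of the 4 conditions.

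In α cells the same treatment gave no call for any of the 8 genes. The filter passed 7 genes and 0 were called by edgeR, against 0.127% of all 14932 genes. No gene had α libraries without overlap between treatments (0%). By unadjusted p, 4 of the 7 were under 0.05, Ddc and Slc30a8 lower and Gad2 and Tph2 higher, against 7.86% of all genes. Gad2 did not pass the filter in control α cells alone and was tested through its DOX libraries. The filter thus favoured a higher DOX level for Gad2. Tph2 passed in neither α condition alone, and nothing is read from the 4. DESeq2 called 1, Ddc. Ddc ran from 97.2 to 240 CPM in DOX α cells (median 195) and from 172 to 280 CPM in control α cells (median 225). Its log2 difference was −0.30 ± 0.07 (adjusted p = 0.125 by edgeR and 0.0218 by DESeq2), and its mean was lower at all 6 times. Within the runs it was −0.36 and −0.25, with adjusted p of 0.193 and 0.960.

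The other α-cell values were small or rested on few counts. Slc30a8 ran from 440 to 636 CPM in DOX α cells (median 505) against 463 to 684 CPM, a log2 difference of −0.15 with a 95% interval of −0.25 to −0.05 (adjusted p = 0.373). Abat ran from 53.1 to 92.3 CPM (median 71.8) against 59.9 to 89.7 CPM, a difference of −0.04 with an interval of −0.18 to 0.10. Gad2 had 490 counts over the DOX and 326 over the control α libraries, at 0.423 to 2.34 CPM (median 1.15), and differed by 0.67 ± 0.27 (adjusted p = 0.495). Tph2 had 0.124 to 1.75 CPM (median 0.634) and differed by 0.97 ± 0.39 (adjusted p = 0.490). Ucn3 stood at 1.30 ± 0.628 CPM and Gad1 at 0.704 ± 0.501 CPM in DOX α cells, with intervals of −0.40 to 1.03 and −0.78 to 0.29 for their differences. Without the control α library of ZT20 replicate 2 the difference of Ucn3 was 0.60 instead of 0.31 (adjusted p = 0.675). None of the 8 genes rose or fell in α cells at a level that passed the edgeR test.

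Whether doxycycline acted differently on the 2 cell types was tested directly through the interaction of cell type and treatment. Gad2 passed the filter through its α libraries and is described apart. Of the 6 other genes tested 4 were called, all more negative in β cells, against 25.5% of all 16207 genes called in either direction, 12.7% higher and 12.8% lower. Gad1 fell further in β than in α cells by −2.36 ± 0.29 on the log2 scale (adjusted p = 1.90e-07), Slc30a8 by −0.82 ± 0.13 (9.54e-06), Ucn3 by −1.22 ± 0.37 (0.0125) and Abat by −0.43 ± 0.11 (0.00485). Without the control α library of ZT20 replicate 2 the value of Ucn3 was −1.66 (adjusted p = 6.60e-05). Within the earlier run these differences were −2.49, −0.84, −1.61 and −0.42, and within the later run −2.26, −0.79, −1.15 and −0.43. The call of Abat was not reached within either run (adjusted p = 0.109 and 0.141) and that of Ucn3 not within the later run (0.250).

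The interaction of Gad2, −2.35 ± 0.80 (adjusted p = 0.0270), rested on β libraries with 26 and 6 counts in all and was lost when any of 6 libraries was left out, with adjusted p of 0.0690 without ZT0 CTR β replicate 1, 0.0554 and 0.0574 without ZT0 DOX β replicates 1 and 2, 0.0533 without ZT8 CTR β replicate 1, 0.0708 without ZT16 CTR β replicate 1 and 0.131 without ZT20 CTR β replicate 2. It was also lost with α and β libraries of the same time, number and treatment as a replicate block (−2.00, adjusted p = 0.118) and in the earlier run (−1.24, adjusted p = 0.558). In the later run every DOX β library was at 0, so no size is given there. Ddc (0.22 ± 0.10, adjusted p = 0.111) and Tph2 (−0.84 ± 0.42, adjusted p = 0.140) were not called. Tph2 passed without the ZT20 CTR α replicate 2 (−1.13, adjusted p = 0.0159) or without the ZT20 DOX α replicate 2 (−1.07, adjusted p = 0.0329).

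**Figure D3:**
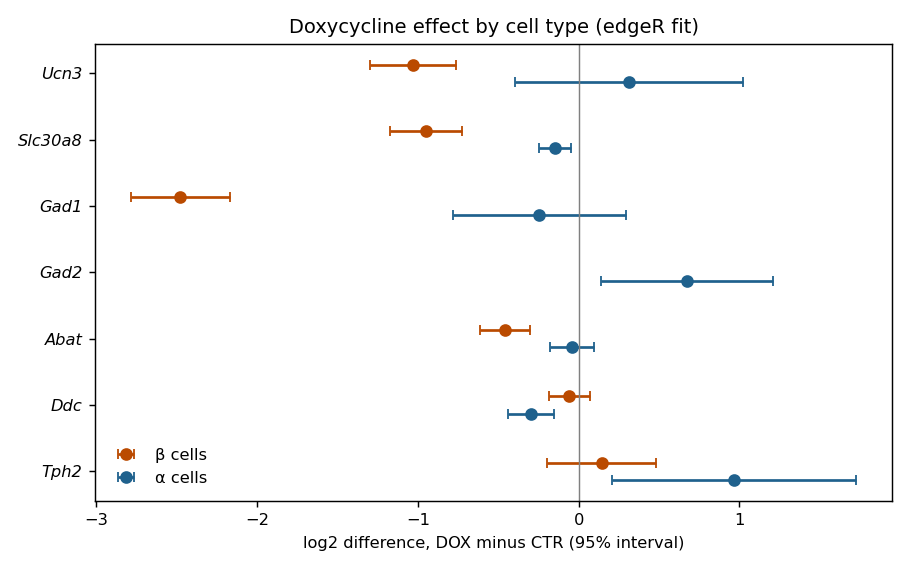
Log2 difference of DOX minus control mice for the tested genes in β and α cells, from edgeR fits with time and run as terms. Points are estimates and bars 95% intervals, and Gad2 in β cells and Tph1 in both cell types are absent because their counts did not pass the filter. The β-cell intervals of Ucn3, Slc30a8, Gad1 and Abat lie below 0, with Gad1 lowest at −2.48.

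The division between the cell types was then compared in DOX mice. Ucn3, Gad1 and Abat stood closer to their α levels than in control mice, by the interaction tests above, and the interaction of Ddc was not called. Gad2 again passed the filter through its α libraries, and all 6 other genes tested were called between β and α cells of DOX mice, against 71.2% of 15370 genes called in either direction, 35.6% higher and 35.7% lower in β cells. Gad1 and Tph2 did not pass the filter in DOX α cells alone and were tested through their β libraries. The filter thus favoured a higher β level for both. Ucn3 was higher in β cells by 7.89 ± 0.29, Gad1 by 4.58 ± 0.23, Tph2 by 1.37 ± 0.27, Ddc by 1.16 ± 0.09 and Abat by 0.91 ± 0.09. Gad2 had 490 counts over the DOX α libraries and 6 over the DOX β libraries, 9 of which were at 0; it was called, but its fitted size depends on the prior count and is no measured fold. In 4 of the 6 genes the groups did not overlap, against 20.6% of genes. Within the runs the difference was 8.06 and 7.84 for Ucn3, 4.20 and 4.77 for Gad1, 1.26 and 1.09 for Ddc, and 0.86 and 0.93 for Abat. Tph2 had 1.02 in the earlier run, which was not called (adjusted p = 0.0635), and 1.58 in the later run.

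Slc30a8 changed side. Its α level was 67.1% of the β level in control mice and 118% in DOX mice, at 520 ± 61.6 CPM in α and 439 ± 122 CPM in β cells (SD, n = 12). The log2 difference of β minus α in DOX mice was −0.25 ± 0.10 (adjusted p = 0.0288), with overlapping groups. This lower β level was not called in either run alone (−0.32, adjusted p = 0.0745, and −0.23, adjusted p = 0.162). It was also lost without ZT4 DOX β replicate 1 (adjusted p = 0.0648), ZT4 DOX β replicate 2 (0.0521), ZT4 DOX α replicate 1 (0.0538) or ZT8 DOX β replicate 1 (0.0508). The interaction of Slc30a8 given above held in both runs.

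Time of day was examined next, since the series sampled the day in 6 steps. No difference of the doxycycline effect between the 6 times was called in β cells, for the 8 genes or for any of the 15188 genes by edgeR (0 called, 0%; 394 genes, or 2.59%, at an unadjusted p under 0.05; 13 genes by DESeq2, none of them among the 8). The 2 runs gave a like result: 7 genes (0.0461%) differed in the doxycycline effect between runs, none of them among the 8. With 2 libraries a time such tests have low power.

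A 24 h cosine was fitted to each condition, and its amplitude is the log2 distance from mean to peak. In control β cells 288 of 13302 genes (2.17%) were called rhythmic and none of the 6 tested members was. Slc30a8 came nearest, with 1013 and 1011 CPM on average at ZT0 and ZT4 and 621 CPM at ZT16, an amplitude of 0.33 and a peak at 4.07 h (adjusted p = 0.0573). It passed without ZT12 replicate 1 (adjusted p = 0.0299) or ZT20 replicate 2 (0.0376), and by DESeq2 (0.000881). Ucn3 was highest at ZT16 and ZT20, with 761 and 735 CPM, at an amplitude of 0.21 and a peak at 19.8 h (adjusted p = 0.221).

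In DOX β cells 11.6% of 13613 genes were called and again none of the 6 tested. Gad1 had its highest means at ZT8 and ZT12, 25.2 and 23.0 CPM, and between 9.93 and 13.5 CPM at the other times. Its amplitude was 0.60 with a peak at 9.24 h (adjusted p = 0.0902), and it passed without ZT0 replicate 1 (0.75, adjusted p = 0.0237) and by DESeq2 (0.0149). The rhythm of none of the 6 genes was shown to differ between control and DOX β cells (0 of 15188 genes called by edgeR, 708 or 4.66% at an unadjusted p under 0.05, 11 by DESeq2). For Gad1 that test gave an adjusted p of 0.999 and for Slc30a8 0.999.

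The same cosine was fitted in α cells. In DOX α cells 2.82% of 13280 genes were called, and of the 5 tested members Abat was called, with an amplitude of 0.34 and a peak at 2.12 h (adjusted p = 0.0369). Its libraries ran from 92.3 and 66.4 CPM at ZT0 and 91.6 and 78.7 CPM at ZT4 down to 53.1 and 54.2 CPM at ZT16. The call was lost without any 1 of 9 of the 12 libraries (adjusted p of 0.0674 to 0.136 where lost) and in each run alone (0.0759 and 0.765). The 9 were ZT0 replicate 1, ZT4 replicate 1, ZT20 replicate 1 and both replicates of ZT8, ZT12 and ZT16.

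Ddc had an amplitude of 0.40 and a peak at 1.49 h in DOX α cells (adjusted p = 0.0772) and an amplitude of 0.24 and a peak at 1.30 h in control α cells (adjusted p = 0.0647). Its lowest control libraries were those of ZT12, 172 and 173 CPM, and its lowest DOX library was at ZT12 too, with 97.2 CPM. In control α cells 4.49% of 13349 genes were called and none of the 5 tested members. Without ZT0 replicate 1, Ddc (adjusted p = 0.0279) and Abat (0.0298) passed there, and without ZT0 replicate 2 Ddc passed in DOX α cells (0.0354). By DESeq2 Ddc passed in control (0.00881) and in DOX α cells (0.00605), where Slc30a8 passed as well (0.00292; 0.0949 by edgeR). Whether these rhythms differed between α and β cells was not tested.

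**Figure D4:**
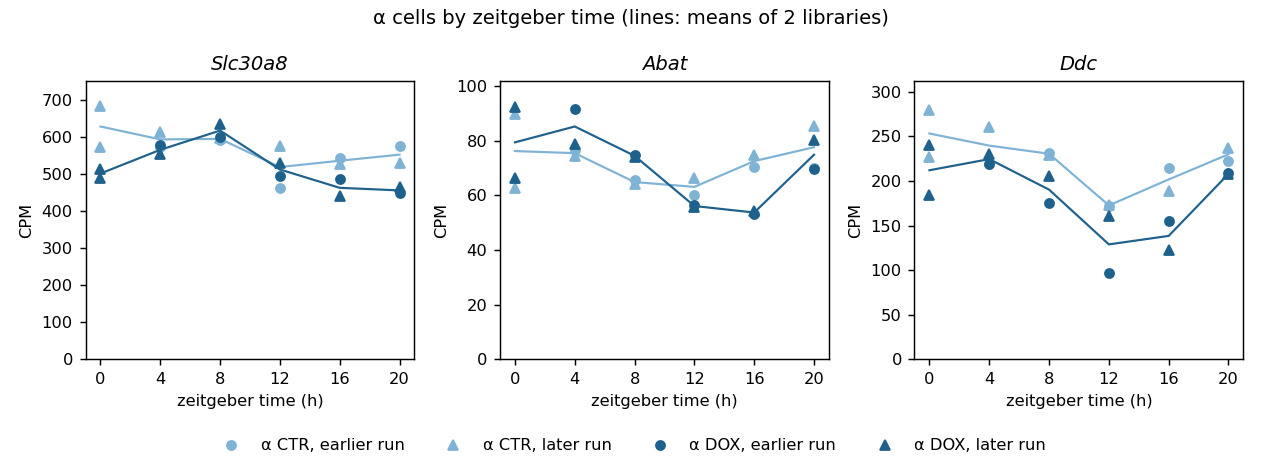
Slc30a8, Abat and Ddc in α cells by zeitgeber time, in CPM on axes that start at 0. Circles are libraries of the earlier and triangles of the later sequencing run, and lines join the means of 2 libraries for control (light) and DOX (dark) mice. Abat and Ddc in DOX mice are lowest at ZT12 and ZT16, and the DOX mean of Ddc lies below the control mean at all 6 times.

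Across β libraries the members did not vary as one. Within the 12 control β libraries Pearson's r of log2 CPM was 0.76 between Abat and Ddc, −0.65 between Gad1 and Abat and −0.44 between Ucn3 and Slc30a8. Within the 12 DOX β libraries it was 0.82 between Slc30a8 and Abat, 0.79 between Slc30a8 and Gad1, 0.68 between Ucn3 and Slc30a8 and 0.66 between Abat and Ddc. These are descriptions, and the libraries share their run, their time and their content of other cells.

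The genes whose levels followed a member most closely over the 24 β libraries, among 8599 genes with at least 10 CPM on average, all had a lower mean level in DOX than in control β cells. Picking by r over both treatments with members that fell favours genes that fell, so this direction is no separate result. For Gad1 they were Ppp1r1a (r = 0.95), an inhibitor of protein phosphatase, Eml2 (0.94), R3hdm2 (0.94), Phactr1 (0.93) and Ogdhl (0.93). For Ucn3 they were Prnp (0.96), the prion protein gene, Itpkb (0.94), an inositol phosphate kinase gene, Tmem215 (0.94), Setd3 (0.93) and Atp6v1e1 (0.93), a proton pump subunit gene. For Slc30a8 they were Fkbp1b (0.96), Trpm5 (0.95), a cation channel gene, Cryl1 (0.94), Ociad2 (0.94) and Ogdhl (0.93). Part of each r is the shift between treatments: with the mean of each treatment removed, r was 0.73 for Gad1 with Ppp1r1a, 0.87 for Ucn3 with Prnp and 0.86 for Slc30a8 with Fkbp1b. The lowest such r in the lists was 0.63, for Gad1 with R3hdm2. Ogdhl stood in the lists of both Gad1 and Slc30a8, at 142 CPM in control and 83.8 CPM in DOX β cells.

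For Gad1 and Ucn3, both called lower in DOX β cells, the sequence before the start sites is shown. It is taken from RefSeq in GRCm38.p6, for the 250 bases before each start. Slc30a8 and Abat are named only, and 6 of the 8 genes had an entry. Ucn3 lies at chr13:3940688-3945349 on the minus strand, and its window is chr13:3945350-3945599. Gad1 lies at chr2:70553072-70602014 on the plus strand, the RefSeq start lies inside that span, and the part of its window outside annotated exons is chr2:70561879-70562041. Capitals mark CAGATG in Ucn3 and TGCTGA in Gad1.
Ucn3: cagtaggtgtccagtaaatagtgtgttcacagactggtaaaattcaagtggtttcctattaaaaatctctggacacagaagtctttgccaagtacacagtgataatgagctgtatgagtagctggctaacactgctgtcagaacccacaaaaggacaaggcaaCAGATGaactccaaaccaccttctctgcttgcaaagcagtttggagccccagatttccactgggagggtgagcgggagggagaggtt
Gad1: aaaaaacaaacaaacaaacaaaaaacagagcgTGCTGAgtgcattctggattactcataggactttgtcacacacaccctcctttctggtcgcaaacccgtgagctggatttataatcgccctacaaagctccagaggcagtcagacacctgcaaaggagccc
On both strands 7 short motifs were searched: TGCTGA, part of the site of MAF factors such as Mafa; TAATTA, a homeodomain site; CAGATG, an E-box; CACGTG, the E-box that clock factors bind; TGACGTCA, the cyclic AMP response element, with its part TGACGT, which overlaps it; and AGGTCA, a nuclear receptor site. Ucn3 held 1 match, CAGATG, whose first base lay at −87 from the start, and 14.4% of 32851 RefSeq windows of that length held one. Gad1 held 1 match, TGCTGA at −218, and 16.1% of windows held one. Neither window held CACGTG, which 6.02% of windows held. TGCTGA also lay in the windows of Gad2 (2 matches) and Tph2 and in a window of Ddc, and CAGATG in that of Gad2. No fall of Tph2 or Ddc was called in DOX β cells, and Gad2 held too few counts there to pass the filter. TGCTGA thus also lay before genes with no called fall. For CAGATG, which among the 6 genes lay in the windows of Ucn3 and Gad2 only, the counts of Gad2 cannot decide this. These matches describe the letters and are no evidence of binding.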

How the data were processed

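RNA was sequenced from 48 libraries. Per the labels, the input was 300 ng of polyA RNA and the kit was TruSeq, which keeps no strand, so antisense overlaps cannot be separated. The submitters' processing notes name bcl2fastq, STAR and GRCm38; the counting program is not given in the sources used here. The authors deposited estimated counts per gene, unscaled, in 1 table per run. They were rounded to whole numbers and scaled by TMM factors. Genes were filtered with filterByExpr (minimum count 10, total 15) and tested with the quasi-likelihood test of edgeR 4.0.16 (R 4.3.3) with time and run as terms; log2 CPM used a prior count of 2, and p-values were adjusted by the Benjamini-Hochberg method across every gene tested, at a threshold of 0.05. SEs were derived from the estimate and F, and 95% intervals span 1.96 SEs each side. Rhythm fits used a cosine and a sine of 24 h. DESeq2 1.42.0, other scaling, no filter, halved counts, a replicate block, single runs and leaving out each library were alternatives. The fits were tested on simulated data. α and β libraries of 1 number deviated together at every time (correlations of 0.196 to 0.706). At all times but ZT0 they also share their sequencing run, so run and pairing cannot be told apart there. At ZT0, within the later run, the correlations were 0.295 in control and 0.706 in DOX mice. α and β libraries of 1 number were treated as pairs only in the replicate block, an alternative. The SEs and p-values given between cell types come from fits without pairs, unless a block is named. Of the 8 genes' calls between the cell types, the block changed that of Gad2 in the interaction. The 8 genes and the gene lists were chosen with earlier results of these data known. Named genes are the 8 members, up to 3 genes of lowest p per list in the 2 comparisons described in full, and the 5 genes most correlated with Gad1, Ucn3 and Slc30a8, with predicted genes passed over. Some genes that this rule would name are not reported here.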

Additional observations from a re-analysis of the deposited data

Results flagged for a closer look

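The doxycycline effect differed between β and α cells, by the interaction test of edgeR, for 4 genes, and for Gad2 with a value that rests on few counts. On the log2 scale the effect in β minus that in α cells was −2.36 for Gad1, −0.82 for Slc30a8, −1.22 for Ucn3, −0.43 for Abat and −2.35 for Gad2. In Gad1, Slc30a8, Ucn3 and Abat the β-cell effect itself was called and the α-cell effect was not. In Gad2 the β libraries held 26 counts in control and 6 in DOX mice, and the gene passed the filter through its α libraries. Leaving out 1 library ended the Gad2 call in 6 cases, and so did a replicate block (adjusted p = 0.118).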

How the results depend on the processing

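The β-cell calls of Gad1, Slc30a8, Ucn3 and Abat held under every alternative run, DESeq2, either run alone, the replicate block and each of 24 left-out libraries included. The counts over all genes moved more. In β cells 4638 genes were called in the earlier and 3747 in the later run alone. In α cells the doxycycline effect called 56 genes without the filter, 7 with the replicate block, 132 in the earlier run, 0 in the later run and 125 by DESeq2, of which 1 was a member, and 9 to 35 with 1 library left out. The difference between cell types called 2139 genes in the earlier and 1243 in the later run, with 3 members in each, and 4 to 6 members with 1 library left out. The difference between times called 13 genes by DESeq2. The difference between runs called 33 genes without the filter, 4 with the replicate block, 85 by DESeq2 and 0 to 22 with 1 library left out. No member was called there, and with 1 library left out the log2 values changed sign for Ucn3 (−0.0818 to 0.25), Slc30a8 (−0.18 to 0.0682), Abat (−0.11 to 0.0445) and Ddc (−0.13 to 0.0172).

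Counts of rhythmic genes depended most on the setting. In control β cells 0 were called in the later run, 1317 by DESeq2 (1 member) and 20 to 893 with 1 library left out (0 to 1 members). In DOX β cells 831 were called without the filter, 688 with the replicate block, 146 in the earlier run, 0 in the later run, 3014 by DESeq2 (1 member) and 112 to 2317 with 1 library left out (0 to 1 members). In control α cells 26 were called in the earlier run, 1 in the later run, 1518 by DESeq2 (1 member) and 179 to 1141 with 1 library left out (0 to 2 members). In DOX α cells 62 were called in the earlier run, 0 in the later run, 1178 by DESeq2 (3 members) and 41 to 560 with 1 library left out (0 to 2 members); 0 members were called in either run and 2 without the filter, Abat and Gad1. The difference of rhythm between treatments called 1 gene without the filter, 1 in the earlier run, 11 by DESeq2 and 0 to 1 with 1 library left out. The cause was not tested, beyond the fewer libraries in single runs.

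Control and DOX libraries of 1 number did not deviate together at ZT0 (correlations of −0.330 in β and −0.560 in α cells), where all come from the later run. At the other times the correlations were 0.100 to 0.494 in β and 0.266 to 0.516 in α cells. Libraries of 1 number share their sequencing run there, so run and pairing cannot be told apart. The block of paired α and β libraries left 4694 genes called in the difference between cell types, with 4 members, Gad2 being lost. A replicate block of control and DOX libraries left 6862 genes called in β cells and changed no call of the 8 genes. DESeq2 gave no F for single genes in the tests over several terms, and those values were not run.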
